A study of Homo sapiens with 19 samples.

Results

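AKAP8 binding peaks that lay in the sequence flanking cassette exons were examined in epithelial and mesenchymal cells. A cassette exon is an internal exon that a transcript either includes or skips. A peak was taken when its center lay on the strand of the exon, outside the exon and within 500 nt of it. No cutoff on the peak values was used. Of 55027 peaks in both lists, 2945 met this rule and are called flanking peaks here. They comprised 1562 of 24637 EPI peaks (6.34%) and 1383 of 30390 MES peaks (4.55%).

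The cells were HMLE/Twist-ER, human mammary epithelial cells immortalized with TERT that carry a tamoxifen-inducible Twist protein. Untreated cells were the epithelial state (EPI), and cells kept in 20 nM tamoxifen until they looked fully mesenchymal were the MES state. AKAP8 eCLIP, in which RNA crosslinked to the protein by UV light is immunoprecipitated and sequenced, was done with 2 immunoprecipitates and 2 inputs in each state, and each state has 1 merged peak list. RNA-seq covered 3 EPI libraries with a non-specific shRNA (EPI control), 3 EPI libraries with an AKAP8 shRNA (EPI knockdown), 3 MES control libraries and 2 MES knockdown libraries. The shRNAs were carried stably from lentiviral vectors, and which AKAP8 shRNA was used is not given in the sources used here. The study's methods describe the RNA-seq and eCLIP samples as biological replicates.

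The RNA-seq tables held 31258177 to 40852217 junction reads per library in the knockdown comparisons. Scaled to 1000000 junction reads per library, AKAP8 had 9.12 to 11.5 reads in EPI control and 3.05 to 4.89 in EPI knockdown libraries. In MES the values were 12.5 to 19.5 in control and 5.88 to 6.10 in knockdown libraries. These sum 5 AKAP8 events in EPI and 3 in MES, so the states cannot be compared by them. Over the 4 events of the EMT comparison, AKAP8 had 8.65 to 10.8 in EPI and 6.30 to 12.7 in MES control libraries. The markers followed the labels, with CDH1 (E-cadherin) at 138 to 162 in EPI and 4.15 to 9.22 in MES control libraries, ESRP1 at 185 to 242 and 6.97 to 19.3, OCLN at 11.5 to 12.0 and 0.608 to 1.20, JUP at 173 to 227 and 26.1 to 36.0, and VIM (vimentin) at 803 to 1005 and 2730 to 3122. FN1 (fibronectin), a second mesenchymal marker, was read in EPI too, at 27200 to 58952 against 101473 to 174831 in MES. The EPI control reads served in both the EPI knockdown and the EMT comparison, and MES controls 1 and 2 in both the MES knockdown and the EMT comparison. Libraries are numbered by their place in the tables, which is not a replicate number.

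AKAP8 is a nuclear A-kinase anchoring protein that also associates with RNA-binding proteins and RNA. Whether a cassette exon is used depends on splicing regulators bound to the exon and to the introns beside it, and runs of G in introns are a known class of such sites, read by the hnRNP H and F family. During the epithelial to mesenchymal transition (EMT) many genes switch isoforms through cassette exons, and the epithelial regulator ESRP1 is lost.

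The sequences of 7 flanking peaks are given first, because the G runs in them recur in nearly every flanking peak. Capitals mark runs of 3 or more G, and each sequence is the whole peak read 5' to 3' on the transcribed strand of GRCh37. The CLSTN1 peak lies beside an exon that the study examined. The MAP2K3, TSPAN4, CAPN15 and BCAR1 peaks are the strongest on each side in EPI and in MES. The TPD52L2 and MICALL2 peaks were added after their values were seen, since their exons changed in the EPI knockdown. All 7 intervals lay in introns.
CLSTN1, EPI: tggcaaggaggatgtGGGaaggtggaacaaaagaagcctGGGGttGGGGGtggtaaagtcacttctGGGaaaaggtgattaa
MAP2K3, EPI: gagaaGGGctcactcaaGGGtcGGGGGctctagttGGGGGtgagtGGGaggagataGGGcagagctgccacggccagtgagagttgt
TSPAN4, EPI: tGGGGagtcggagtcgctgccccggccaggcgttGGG
CAPN15, MES: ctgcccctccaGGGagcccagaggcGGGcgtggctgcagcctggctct
BCAR1, MES: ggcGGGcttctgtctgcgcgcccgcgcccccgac
TPD52L2, EPI: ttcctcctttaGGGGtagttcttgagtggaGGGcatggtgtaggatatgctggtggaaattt
MICALL2, EPI: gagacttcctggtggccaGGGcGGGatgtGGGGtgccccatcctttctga

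These intervals were short. The CLSTN1 peak was chr1:9797775-9797856 (minus strand, 82 nt) and held 4 runs. The MAP2K3 peak was chr17:21198494-21198580 (plus strand, 87 nt) and held 6 runs. The TSPAN4 peak was chr11:850437-850473 (plus strand, 37 nt), with 2 runs. In these 3 the longest run had 5, 5 and 4 G. The CAPN15 peak was chr16:585648-585695 (plus strand, 48 nt), also with 2 runs, and the BCAR1 peak chr16:75285631-75285664 (minus strand, 34 nt) had 1 run and was otherwise rich in C. The TPD52L2 peak was chr20:62507661-62507722 (plus strand, 62 nt), with 2 runs. The MICALL2 peak was chr7:1473616-1473665 (minus strand, 50 nt), with 3 runs.

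Flanking peaks were more numerous on the upstream side of the exon, the side of the 3' splice site, than on the downstream side. In EPI, 945 peaks lay upstream and 617 downstream, so 60.5% were upstream (95% Wilson interval 58.1 to 62.9%). In MES, 803 lay upstream and 580 downstream, so 58.1% were upstream (95% Wilson interval 55.4 to 60.6%). The intervals cover counting error only, and peaks beside 1 exon are not independent. Overlapping peaks of a list were also merged into sites, which left 1072 EPI and 933 MES sites, with 59.0% and 57.3% upstream. Among the peaks whose center lay in an intron of every transcript, 57.8% of 1126 were upstream in EPI and 56.4% of 1041 in MES.

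Peaks were sparse directly at the exon edges. In EPI, the 50 nt next to the exon held 32 peak centers upstream, where each other 50 nt held 89 to 117. On the downstream side of EPI exons the nearest 50 nt held 39, against 51 to 84 farther out. In MES the nearest 50 nt held 21 upstream and 22 downstream, against 70 to 101 and 45 to 76. Beyond this edge the peaks were spread over the whole window, with a median distance of 262 nt upstream and 230 nt downstream in EPI, and 275 and 242 nt in MES. The peak interval itself reached into the exon for 17 EPI peaks (1.09%) and 10 MES peaks (0.723%).

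**Figure D1:**
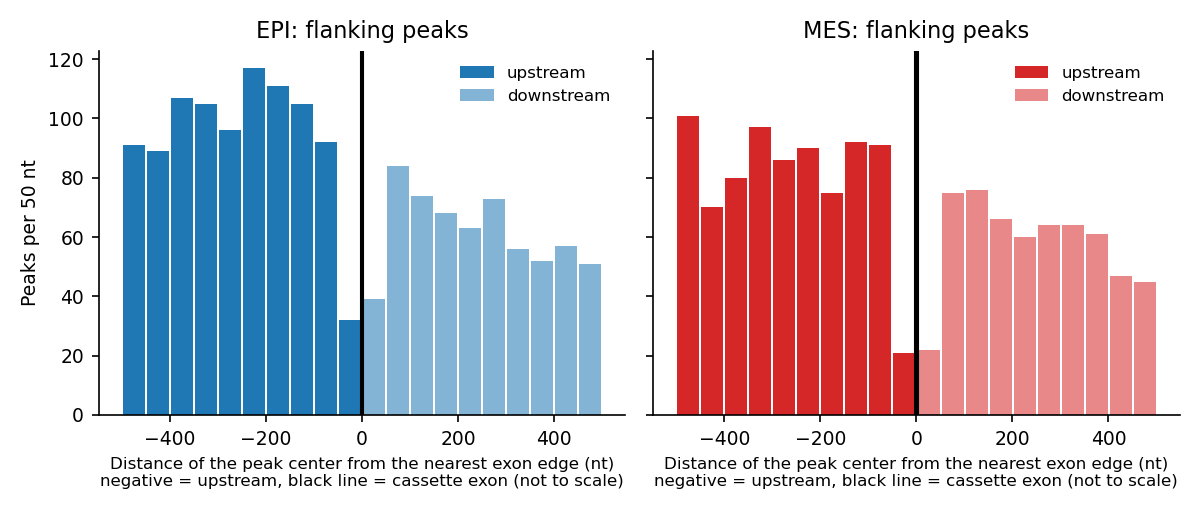
Number of flanking peaks (y axis, peaks per 50 nt) by the distance of the peak center from the nearest edge of the cassette exon in nt (x axis, negative upstream), for EPI and MES. The bins at the exon edge are the lowest on both sides, 32 and 39 peaks in EPI and 21 and 22 in MES, and beyond 50 nt each upstream bin is higher than the downstream bin at the same distance.

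Nearly all flanking peaks lay in the intron that separates the cassette exon from its neighbor in the splicing event, 97.9% in EPI and 98.8% in MES. Some of these introns are exonic in another transcript. In EPI, 68.9% of the upstream peaks lay in sequence that is intron in every annotated transcript, 18.5% in an exon of a noncoding transcript, 11.2% in an untranslated region (UTR) and 1.38% in coding sequence. For the downstream EPI peaks these shares were 77.0, 13.0, 8.27 and 1.78%. In MES, 73.1% of the upstream and 78.3% of the downstream peaks were purely intronic. Of the peaks elsewhere, 88.4% in EPI and 91.1% in MES were intronic. No flanking peak had its center in a small RNA gene.

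The exons with flanking peaks were few. There were 862 in EPI and 652 in MES, or 1.64% and 1.24% of the 52720 cassette exons in the tables, and 374 had peaks in both states, 43.4% of the EPI and 57.4% of the MES exons. Most had a single site, 600 in EPI and 417 in MES, while 33 and 38 had 4 or more. Both sides carried peaks at 81 EPI and 80 MES exons. The exons were close to the typical size, with a median length of 120 nt in EPI and 123 nt in MES against 117 nt over all cassette exons. Exons of 300 nt or more made up 7.66% in EPI and 9.05% in MES, against 4.50% of all. The upstream intron, the shortest over the events of an exon, was read for the 550 EPI and 431 MES exons with upstream peaks. Its median was 1584 nt in EPI and 2721 nt in MES. Over all cassette exons the median was 2254 nt, so the states lay on opposite sides of it.

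Windows of 100 nt around the peak centers were rich in G. A run of 3 or more G was present in 100% of the EPI and 99.9% of the MES windows, against 63.9% of the 513735 different 100-nt stretches beside all cassette exons. The mean number of runs was 5.99 in EPI and 5.34 in MES, against 1.35 in the stretches. At least 4 runs were present in 89.6% and 82.1%, against 9.26%. Over all cassette exons, the upstream and downstream stretches held 4 or more runs about equally often, 9.20 and 9.33%. Stretches beside the exons with peaks were not counted apart, and the reason for the upstream excess of peaks was not tested. In the 100 nt next to the exon the downstream stretches held 4 or more runs more often (15.8%) than the upstream ones (9.43%).

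The median G content was 45% in EPI and 41% in MES, against 22% in the stretches, and the lowest G content of any window was 22% in EPI and 20% in MES. On the 5' side, T came before 43.2%, A before 36.6% and C before 20.2% of the EPI runs. In the stretches these shares were 51.7, 35.6 and 12.7%, so T was less and C more frequent before the EPI runs. After the EPI runs, A (35.9%) and C (35.1%) were about equally frequent, against 38.7 and 32.4% in the stretches. Within the peak interval itself, a run with an A or T directly beside it was present in 97.4% of EPI and 96.5% of MES flanking peaks. A run with any base beside it was present in 98.3 and 97.5%. Of all 5-base words, GGGAG gained most in EPI, present in 68.7% of the windows and 15.9% of the stretches. The next were TGGGG, in 68.2% of the windows against 15.8% of the stretches, and GAGGG, in 63.3% against 11.8%. In MES the word TGGGG led (66.9%), before GGGGC (58.1%, against 10.4% of the stretches). By contrast, ATTTT was found in 3.01% of EPI and 3.62% of MES windows and in 29.2% of the stretches. Words were searched on the transcribed strand, and overlapping words were each counted.

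In EPI these features were no mark of the flanking position, since peaks elsewhere had a mean of 5.85 runs and 4 or more in 89.3%. In MES the peaks elsewhere had 4.96 runs, and 4 or more in 77.1%, against 82.1% of the flanking peaks. MES flanking peaks with no overlapping EPI peak held 4 or more runs less often than those with one, 75.4 against 87.9%.

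The share of stretches with a peak center was higher the more G runs the stretch held. Only stretches beside exons of events with at least 20 mean junction reads per library were counted here. Of 169490 stretches without a run, 4 held an EPI peak center (0.00236%) and 1 a MES peak center. With 3 runs the shares were 0.325% in EPI and 0.342% in MES, with 4 to 5 runs 1.26 and 1.23%, and with 6 to 7 runs 4.42 and 2.92%. Of 2021 stretches with 8 or more runs, 189 held an EPI peak center (9.35%, 95% Wilson interval 8.16 to 10.7%) and 102 a MES peak center (5.05%, 4.17 to 6.09%). The remaining 1832 and 1919 of these stretches had none, so G runs were frequent in peaks while most stretches rich in them had no peak. These shares were set beside the junction reads of the exon. With stretches sorted by those reads into 5 equal groups, from least to most read, 2.29, 1.89, 2.41, 2.26 and 2.96% of stretches with 4 or more runs held an EPI peak. Within the flanking peaks, the number of runs was almost unrelated to strength, with Pearson's r of 0.10 over 1562 EPI and -0.066 over 1383 MES peaks. Such peaks share libraries and often a gene.

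**Figure D2:**
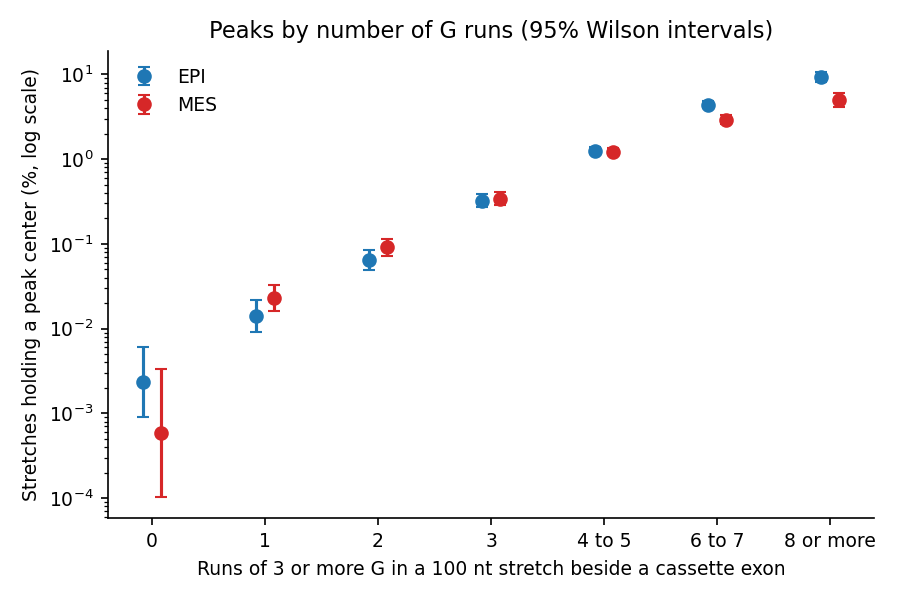
Share of the different 100-nt stretches beside cassette exons that held a peak center (y axis, percent, log scale) by the number of runs of 3 or more G in the stretch (x axis). Only exons of events with at least 20 mean junction reads per library were counted. Points are EPI and MES and bars are 95% Wilson intervals, and the share goes from 0.00236% without a run to 9.35% with 8 or more in EPI, and to 5.05% in MES.

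Peak strength is the log2 of reads in the immunoprecipitate over the input, with 1 merged value per peak and therefore no replicate spread. The median was 3.56 in EPI (quartiles 3.14 and 4.08, range 0.61 to 6.17) and 3.19 in MES (quartiles 2.59 and 3.64, range 0.52 to 6.21). Peaks elsewhere had medians of 3.67 and 3.37. Upstream and downstream peaks differed little, 3.60 and 3.48 in EPI and 3.19 and 3.20 in MES. The cutoffs of the study, a log2 of at least 2 and a -log10 adjusted p of at least 3, were met by 1349 EPI (86.4%) and 1157 MES (83.7%) flanking peaks.

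About equal parts of the flanking peaks were found in both states or in 1. Of the EPI flanking peaks, 756 (48.4%) overlapped a MES peak, compared with 62.5% of the EPI peaks elsewhere. For MES, 745 (53.9%) overlapped an EPI peak, compared with 49.2% elsewhere. Where both were present, the EPI value was usually the higher one, in 571 of 756 pairs (75.5%) seen from EPI with a median difference of 0.72 on the log2 scale, and in 567 of 745 (76.1%) seen from MES with 0.76. The same held to a lesser degree for peaks elsewhere, with median differences of 0.51 and 0.48. The strongest overlapping peak of the other state was taken, the lists were normalized separately, and there is no test of the difference. The values of a pair were only weakly related, with Pearson's r of 0.15 over the 756 EPI peaks, some of which shared a MES peak.

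**Figure D3:**
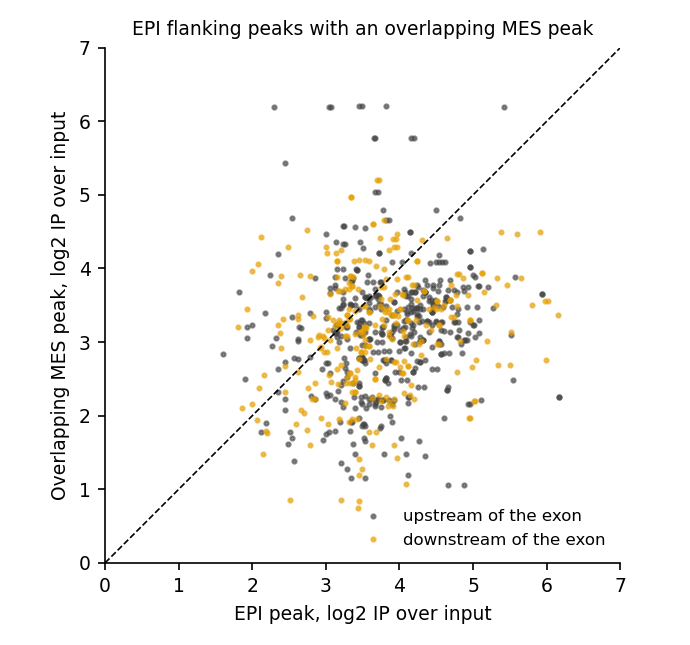
Log2 of immunoprecipitate over input of the 756 EPI flanking peaks (x axis) and of the strongest MES peak that overlaps each (y axis), upstream in gray and downstream in orange. The dashed line marks equal values, and 75.5% of the points lie below it, where the EPI value is higher.

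The genes were partly read at different levels in the states. For 293 genes with flanking peaks in EPI alone, the median log2 ratio of MES over EPI junction reads was -0.40, and for 261 genes with peaks in both states it was -0.28. For 136 genes with MES peaks alone it was 0.07, against -0.10 over all 10878 genes with reads. The part of these levels in which state had a peak was not tested.

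Among the strongest EPI peaks upstream of an exon were those of MAP2K3, a kinase of the p38 MAPK pathway (log2 6.17, 450 nt from its 95-nt exon), and CTBP1, a transcriptional corepressor (5.57, 241 nt). CEP89, a centrosomal protein, followed with 5.54 and GPSM1, a modulator of G-protein signaling, with 5.42. The exons beside MAP2K3, CTBP1 and CEP89 peaks were mostly of a single form in these cells, and the GPSM1 exon had no value. PSI (percent spliced in, the share of transcripts that include the exon, given here from 0 to 1) averaged 0.00588 in EPI control libraries for MAP2K3 and 0.989 for CTBP1. The CEP89 exon was at 0.0739.

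Downstream in EPI, the strongest peaks were those of TSPAN4, a tetraspanin membrane protein (6.16, 88 nt from an 80-nt exon with a PSI of 0.878), ACAP3, an Arf GTPase-activating protein (6.02, 356 nt, PSI 0.988), and GLI4, a zinc finger protein (5.99, 197 nt, PSI 0.734). CD81, another tetraspanin (5.90), and BCAR1, the p130Cas scaffold of focal adhesions (5.65), came next. The 10 strongest EPI peaks, 5 on each side, all overlapped a MES peak, with log2 values from 2.25 to 6.19. The MAP2K3 peak had 2.25 in MES and the GPSM1 peak 6.19, the lowest and the highest.

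In MES the strongest upstream peaks were those of CAPN15, a calpain family protein (6.21, 357 nt), GPSM1 (6.19, 356 nt) and SCRIB, a cell polarity scaffold (5.77, 358 nt), followed by SH3TC1 (5.44) and TPD52L2 (5.08). The strongest downstream ones were those of BCAR1 (5.21, 485 nt), CAPN15 at another exon (5.12, 391 nt) and MTA1, a subunit of the NuRD chromatin complex (4.98, 187 nt). TPCN2, a lysosomal cation channel (4.90), and TCF25 (4.86) followed. The TPD52L2, TPCN2 and TCF25 peaks and the downstream CAPN15 peak had no overlapping EPI peak. The CAPN15, GPSM1, SCRIB and SH3TC1 upstream peaks overlapped EPI peaks of 3.82, 5.42, 4.20 and 2.44.

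Some exons were crowded with sites. The 81-nt exon of ANXA2, which encodes the membrane-binding protein annexin A2, had 6 EPI sites and 0 MES sites. ANXA2 was read deeply in both states, at 19597 to 23739 reads in EPI and 14719 to 20142 in MES control libraries on the same scale of 1000000 junction reads. An exon of 179 nt in EEF1D, a subunit of translation elongation factor 1, had 6 EPI and 7 MES sites, and its 247-nt exon had 3 and 10. NFIC, a transcription factor, had 6 EPI and 2 MES sites at a 532-nt exon, and ACAP3 had 5 and 6 at a 58-nt exon. EIF4A1, a translation initiation helicase, had 4 and 7 at a 148-nt exon. By gene, MTA1 had 12 EPI and 15 MES sites, and TPCN2 led in MES with 23. Chromosome 19, a gene-dense chromosome, held 19.3% of the EPI flanking peaks and 12% of the EPI peaks elsewhere, and in MES 16.9 and 11.5%.

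The RNA-seq tables show whether the exons beside peaks changed their inclusion after AKAP8 knockdown. An event was called changed with an adjusted p under 0.05 and a change in PSI of at least 0.1, in a quasi-binomial test moderated with limma over all events. In the EPI knockdown, 28 of 47579 tested events changed (0.0588%), with 13 higher (0.0273%) and 15 lower (0.0315%). Of 919 events beside an EPI peak, 3 changed (0.326%), namely CLSTN1 and MICALL2, which were higher, and TPD52L2, which was lower. With any 1 library left out, the count beside EPI peaks was 1 to 2, and with limma on the logit of PSI it was 0, as it was over all 47579 events. Events beside peaks were also more often alternative, with a PSI between 0.1 and 0.9 in 13.6% against 10.1% of all events. Within such events, 3 of 125 beside a peak changed (2.40%), against 0.438% of 4792.

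CLSTN1 encodes calsyntenin-1, a membrane protein that links cargo to kinesin motors, and its 57-nt exon (chr1:9797556-9797612, GRCh37, minus strand) has an EPI peak 204 nt upstream, with a log2 of 2.26. Its PSI was 0.344, 0.343 and 0.304 in the EPI control libraries and 0.602, 0.587 and 0.548 in the EPI knockdown libraries. The groups did not overlap. The mean rose from 0.330 ± 0.0225 to 0.579 ± 0.0278 (SD, n = 3 each), a change of 0.249 (limma-moderated quasi-binomial test, adjusted p = 8.51e-11). The call held in 9 of 10 alternative settings. It was lost with limma on the logit of PSI, where the adjusted p was 0.883, the highest of a range that began at 7.09e-11. The MES list held no peak beside this exon, but the study reports AKAP8 binding at this site in both states, stronger in EPI. In MES the PSI was 0.947 and 0.942 in control and 0.961 and 0.948 in knockdown libraries. This change of 0.00987 did not pass the test (adjusted p = 0.763 in the limma-moderated test), with the exon already near full inclusion, and the difference between the states was not tested.

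MICALL2, which links Rab13 to junctions and actin, has a 938-nt exon (chr7:1473846-1474783, minus strand) with EPI peaks on both sides, 3.59 at 136 nt upstream and 5.15 at 205 nt downstream. Its PSI was 0.630, 0.882 and 0.612 in EPI control and 1, 1 and 0.962 in EPI knockdown libraries, with 53.0 junction reads per library. Each knockdown library lay above each control library. The change was 0.279 (limma-moderated test, adjusted p = 0.0416). This call was not stable when libraries were left out. It was lost without EPI control 1 (adjusted p = 0.544), EPI control 3 (0.238), or EPI knockdown 1 (0.519), 2 (0.0876) or 3 (0.224), all by the same limma-moderated test. The change was then 0.231 to 0.292. With all libraries it was also lost with limma on the logit of PSI (adjusted p = 0.437). In MES the PSI was 0.714 and 0.587 in control and 0.889 and 0.867 in knockdown libraries, which also did not overlap, and the change of 0.227 did not pass the test (limma-moderated, adjusted p = 0.763). MES peaks lay on both sides of it as well, up to 3.54 upstream and 3.68 downstream.

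TPD52L2, of the tumor protein D52 family of vesicle trafficking proteins, has a 60-nt exon (chr20:62507169-62507228, plus strand) with a peak far downstream in both states, 3.16 at 464 nt in EPI and 3.26 at 469 nt in MES. Its PSI was 0.712, 0.768 and 0.761 in EPI control and 0.672, 0.587 and 0.633 in EPI knockdown libraries. The groups did not overlap. The inclusion fell by 0.116 (limma-moderated test, adjusted p = 0.00849, 1490 reads per library). This call was lost without EPI control 2 (adjusted p = 0.536) or 3 (0.305) and without EPI knockdown 2 (0.152) or 3 (0.0941), in the same limma-moderated test, and with limma on the logit of PSI (adjusted p = 0.909). MES had 0.782 and 0.741 in control and 0.689 and 0.629 in knockdown libraries, again without overlap, and its change of -0.103 did not pass the test (limma-moderated, adjusted p = 0.192). The study, at looser cutoffs, lists this exon as bound and regulated by AKAP8 in both states.

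**Figure D4:**
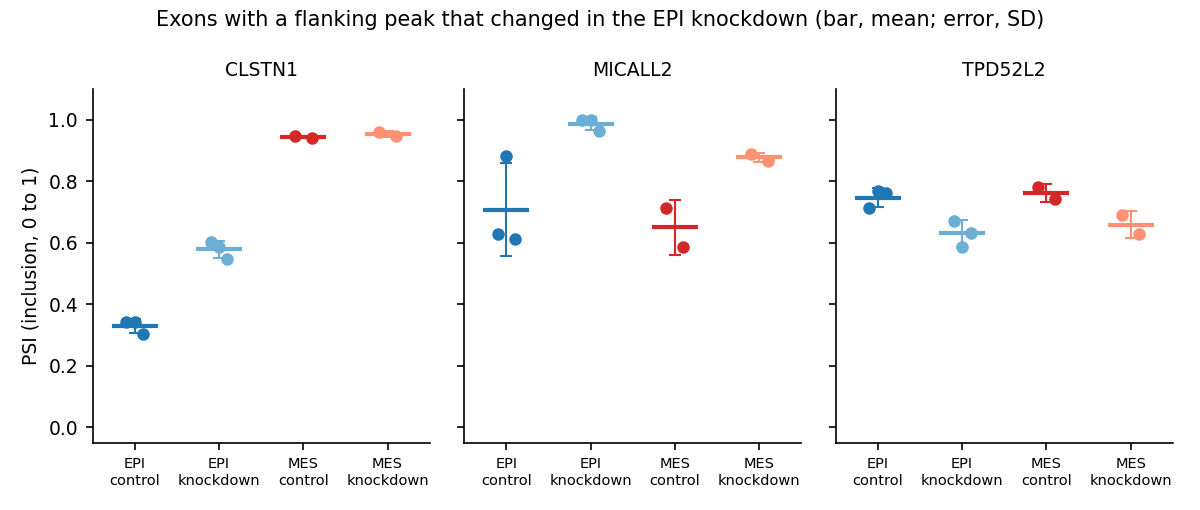
PSI (y axis, inclusion from 0 to 1) of the CLSTN1, MICALL2 and TPD52L2 exons in each library of the EPI control, EPI knockdown, MES control and MES knockdown groups, with points for libraries, bars for means and error bars for SD. The EPI knockdown points of CLSTN1 (0.548 to 0.602) lie above the control points (0.304 to 0.344), and its MES points all lie at 0.942 or above.

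In the MES knockdown, 21 of 43832 tested events changed (0.0479%), and 0 of 648 events beside a MES peak did by the limma-moderated quasi-binomial test. With limma on the logit of PSI 0 of all 43832 events were called, so that fit adds nothing here. At an unadjusted p under 0.05 with a change of at least 0.1, 17 events beside a MES peak passed (2.62%), against 1.06% of all events. The same rule gave 15 of the 919 EPI events (1.63%), against 0.782% of all. At 0.0479%, fewer than 1 event would be called among 648, so the 0 is no sign of a difference from other events. At looser cutoffs, the study lists the INF2, GSN, PLXNB2 and TPD52L2 exons as bound and regulated by AKAP8 in MES. Without MES knockdown 1, PTBP1 (change -0.192, adjusted p = 1.41e-04) and HMGA1 (change 0.248, adjusted p = 0.00581) were called beside MES peaks in the limma-moderated test, with the lone knockdown library assumed to vary like the controls. With all libraries their changes were -0.0877 and 0.139.

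During EMT more exons changed, toward inclusion in EXOC7, CLSTN1, GSN and DDR1 and toward skipping in INF2. Between EPI and MES control libraries 692 of 49330 events changed (1.4%), 381 higher (0.772%) and 311 lower (0.63%) in MES. Of 1168 events beside an EPI or MES peak, 36 changed (3.08%), in 33 exons of 26 genes. Inclusion was higher in MES for 22 and lower for 14. Events beside peaks were more often alternative here too, with a PSI between 0.1 and 0.9 in 14.4% (EPI peaks) and 16.7% (MES peaks) against 9.97% of all. Among such events 25 of 173 beside a peak changed (14.5%), against 10.1% of 4918. With peaks upstream, 18 of 770 changed (2.34%), of which 14 were higher, and with peaks downstream 25 of 555 (4.50%), 13 higher and 12 lower, and some events counted on both sides. Among the alternative events, 10 of 103 with peaks upstream changed (9.71%) and 18 of 101 with peaks downstream (17.8%), against 10.1% of all. The difference between the sides was not tested.

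The exon with the largest change in this set was in EXOC7, a subunit of the exocyst that tethers secretory vesicles. Its PSI was 0.220, 0.0876 and 0.0984 in EPI control and 0.958, 0.831 and 0.952 in MES control libraries, a change of 0.778 (limma-moderated test, adjusted p = 1.05e-13), with a weak MES peak (1.64) 79 nt upstream. The CLSTN1 exon rose by 0.614, to 0.947, 0.942 and 0.945 in the MES libraries (limma-moderated test, adjusted p = 3.06e-87). Its peak was in the EPI list, while the study reports binding there in both states. Both exons switched from mostly skipped to mostly included, with no overlap of the groups.

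GSN encodes gelsolin, which severs actin filaments, and its 71-nt exon went from 0.145, 0.167 and 0.313 to 0.637, 0.719 and 0.665, a change of 0.465 (limma-moderated test, adjusted p = 9.84e-07), with MES peaks up to 3.63 upstream. These values are of a single splicing event. In another event of the same GSN exon the mean PSI was 0.0208 in EPI and 0.110 in MES control libraries. DDR1 encodes a collagen receptor kinase, and its 56-nt exon went from 0.340, 0.371 and 0.352 to 0.743, 0.799 and 0.861, a change of 0.447 (limma-moderated test, adjusted p = 7.12e-04). Its peaks were in EPI, 1.95 upstream and 4.27 downstream. PLXNB2 encodes a plexin receptor for semaphorins, and its 60-nt exon went from 0.435, 0.631 and 0.670 to 0.932, 0.940 and 0.775, a change of 0.304 (limma-moderated test, adjusted p = 2.66e-05), with downstream peaks in both states (3.95 in EPI and 4.40 in MES). In the events first given, each of these exons was included more in every MES than in every EPI library. The PLXNB2 call was lost with limma on the logit of PSI (adjusted p = 0.0546).

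INF2, a formin that acts on actin filaments, moved the other way. Its 57-nt exon was at 0.925, 0.903 and 0.939 in EPI and 0.599, 0.623 and 0.629 in MES control libraries, a change of -0.305 (limma-moderated test, adjusted p = 4.78e-14). This exon had peaks in MES alone, 0.89 upstream and 3.02 downstream. In MES knockdown libraries its PSI was 0.461 and 0.436, and that change of -0.162 did not pass the test (limma-moderated, adjusted p = 0.763). The study, at looser cutoffs, lists this exon as bound and regulated by AKAP8 in MES.

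CAPN15 carried the strongest MES flanking peak, upstream of a 114-nt exon. The PSI of this exon was 0.0263, 0.0732 and 0.128 in EPI and 0.302, 0.818 and 0.375 in MES control libraries, a change of 0.423 (limma-moderated test, adjusted p = 0.00141, 23.7 reads per library). Without EPI control 1 (change 0.398, adjusted p = 0.115) or MES control 2 (change 0.263, adjusted p = 0.139) it was not called in the limma-moderated test. RP11-983P16.4, with an EPI peak upstream (2.48), was at 1 in all 3 EPI libraries and at 0.818, 0.238 and 1 in MES, so the groups touched and the change of -0.315 (limma-moderated test, adjusted p = 0.00129) came from 2 libraries. Without MES control 2 the change was -0.0909 (limma-moderated test, adjusted p = 0.757). In the MES knockdown, PLXNB2 changed by -0.178 (limma-moderated test, adjusted p = 0.0634), EXOC7 by -0.0791 and CAPN15 by -0.134. All of these exons had risen in EMT. In the EPI knockdown, PLXNB2 changed by 0.135, GSN by 0.107, CAPN15 by 0.0211 and INF2 by 0.0208. DDR1 changed there by 0.00214 and RP11-983P16.4 by -0.0267. None of these knockdown changes was called.

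**Figure D5:**
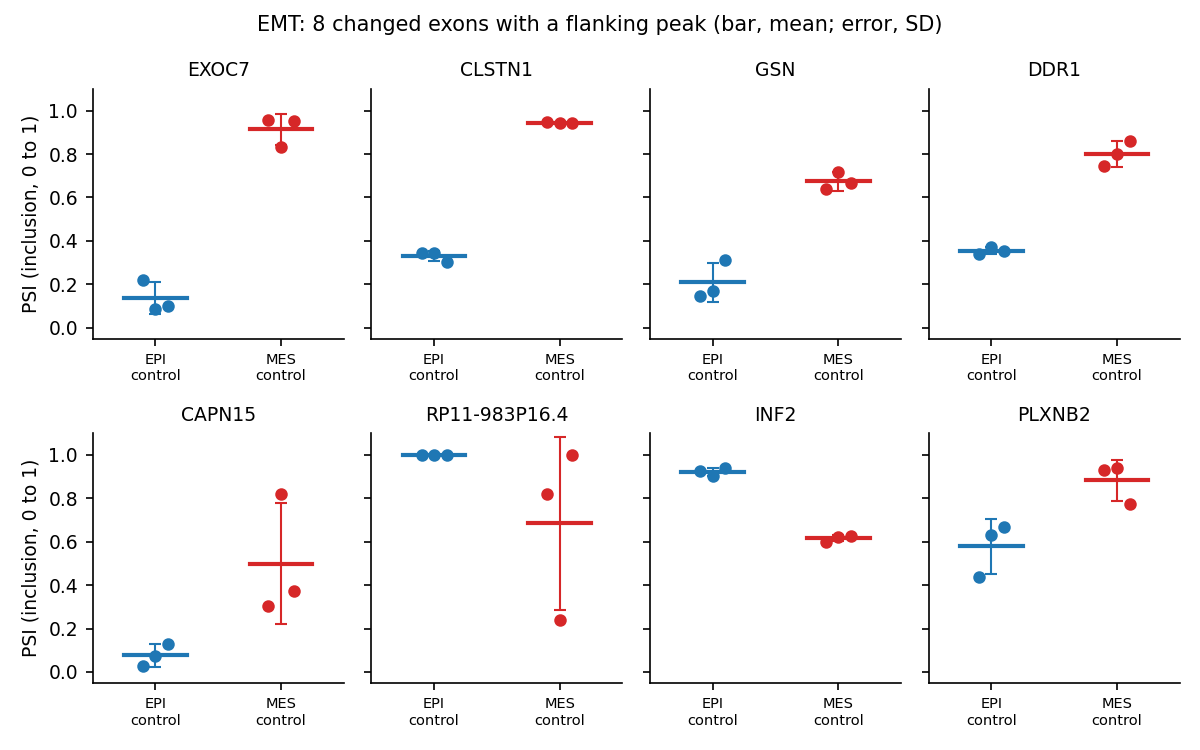
PSI (y axis, inclusion from 0 to 1) of 8 exons with a flanking peak in the 3 EPI control and 3 MES control libraries, with points for libraries, bars for means and error bars for SD. In EXOC7, CLSTN1, GSN, DDR1, CAPN15 and PLXNB2 every MES point lies above every EPI point, in INF2 every MES point (0.599 to 0.629) lies below the EPI points, and in RP11-983P16.4 the MES points run from 0.238 to 1.

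The other changed genes had smaller changes. VEGFA, the angiogenic growth factor, had 5 events beside peaks that were lower in MES, with changes of -0.114 to -0.278, and MAX, the partner of MYC, had 2 lower events. RHOC, a small GTPase of the actin cytoskeleton, had 2 higher events (0.124 and 0.150), and so had PTBP1, a splicing repressor (0.121 and 0.147). BAIAP2, an adaptor protein of the actin cytoskeleton, had 1 higher and 2 lower events. Single events rose in MTA1 (0.302), SEMA4B (0.295), PUF60, a splicing factor (0.293), and BIN1, a membrane-bending protein (0.242), and fell in AKT2, a kinase of the insulin pathway (-0.215).

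The named gene lists were read by the number of their genes with a flanking peak. Of all 11759 genes with a cassette exon, 690 had a flanking peak in either state (5.87%) and 261 in both. Among 30 genes known for isoform switches in EMT, 9 had one (30.0%), 8 in EPI with 38 peaks and 4 in MES with 25. Among them, CLSTN1, NUMB, MYO18A and TPM1 had them in EPI, EXOC7 in MES, and MICALL2, SCRIB and DNM2 in both. NUMB, a regulator of Notch signaling, had its strongest at 4.12 upstream in EPI, and DNM2, the dynamin of endocytosis, at 3.58 downstream. No CD44 peak was in the lists used here. The study, however, reports a significant AKAP8 peak upstream of a CD44 variable exon, and binding to its sequence in an RNA pull-down. Neither the length nor the number of cassette exons of the genes was matched. The lists were also chosen with earlier results of these data known. The study already lists exons of CLSTN1 and MICALL2, and of INF2 and GSN of the junction list, as bound and regulated by AKAP8. Its cutoffs for that list were looser than those used here. The shares of these lists are therefore no independent evidence.

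Of 35 junction, polarity and cytoskeleton genes with a cassette exon, 9 had a flanking peak (25.7%). CDH1, PKP3, PLEC and TPM4 had them in EPI, ACTN1 in MES, and LLGL1, ACTN4, INF2 and GSN in both. The strongest was that of ACTN4, an actin crosslinker (4.58 upstream in EPI), followed by PLEC, a cytoskeletal linker (4.12). Among 24 hnRNPs and other splicing regulators, 4 had one (16.7%). These were PTBP1 (4.96), HNRNPF (3.67), AKAP8 itself (3.33 in MES, 310 nt upstream of a 39-nt exon) and HNRNPU (2.39, EPI alone). Among 15 SR proteins and their kinases, SRSF6 alone had one, with 1 EPI peak of 3.86 and none in MES.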

How the data were processed

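RNA-seq was measured in 11 libraries and AKAP8 eCLIP in 8. The authors aligned reads to GRCh37 with STAR and counted inclusion and skipping junction reads per event with rMATS. The deposited peak lists hold, for each merged peak, the log2 of immunoprecipitate over input and the -log10 adjusted p-value that the authors' eCLIP pipeline gave. The 3 skipped exon tables were used. Their 6 fields of PSI and the authors' comparison columns (p-values, FDR and differences), 12 tables of other event types and a gene table were not used.

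PSI was recomputed per library from the junction reads and effective lengths. Events with at least 20 mean junction reads per library entered a quasi-binomial F test whose dispersion was moderated with limma 3.58.1 (R 4.3.3), and Benjamini-Hochberg adjustment over all events of a comparison. The test was checked on simulated data. Peaks and exons were joined with Python 3.11.15 and pandas 2.3.3, and regions came from Gencode on GRCh37. The members and gene lists were chosen with earlier results of these data known. Genes were named by rule: the 5 strongest peaks per state and side, changed exons beside peaks of the same state, the 8 largest EMT changes, studied exons and listed genes. Alternatives were the window, peak cutoffs, merging into sites, read minimum, a limma fit on the logit of PSI and leaving out each library. Some genes that the rule selects are not reported here.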

Additional observations from a re-analysis of the deposited data

How the results depend on the processing

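The number of flanking peaks followed the window and the cutoff. It was 785 in EPI and 668 in MES within 250 nt, 3121 and 2760 within 1000 nt, 433 and 163 at a log2 of at least 4, and 886 in MES at 3. The upstream share moved to 68.4% in EPI and 54.0% in MES at a log2 of at least 4, and to 55.2% in MES within 250 nt. The median log2 was 3.76 in EPI and 3.51 in MES at a log2 of at least 3, and 4.39 and 4.33 at 4. At 2, with a -log10 adjusted p of at least 3, it was 3.70 and 3.32, and over merged sites 3.49 and 3.02. These last 2 alternatives were chosen after seeing the data. Counted within the peak interval, a G run beside A or T was in 97.4 and 96.5%.

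With limma on the logit of PSI, 0 events changed in the EPI and 0 in the MES knockdown, 0 beside EPI peaks, and in EMT 417 in all and 18 beside peaks. Leaving out 1 library gave 16 to 31 changed events in the EPI knockdown and 1 to 2 beside EPI peaks, 5 to 17 in the MES knockdown and 0 to 2 beside MES peaks, and 454 to 784 in EMT and 24 to 38 beside peaks. Counts fell by over 1.5 times without EPI control 1 (EPI knockdown 16, EMT 454), EPI control 3 (16, and 1 beside EPI peaks), EPI knockdown 2 (1 beside), EPI knockdown 3 (17, and 1 beside), MES control 1 (5) and MES control 2 (11), and without MES knockdown 1 the count beside MES peaks was 2. No paired analysis was possible because the fields of the tables do not number the libraries. In 84 other settings the comparison counts, shares and medians stayed within their limits. For named exons, 230 of 246 settings left the call as it was and 231 kept the direction of the change. These settings include comparisons in which the exon was never called, and every loss was of a called exon. In the EPI knockdown the call held in 9 of 10 settings for CLSTN1, 5 of 10 for TPD52L2 and 4 of 10 for MICALL2. The depth of the eCLIP libraries is unknown, and a single merged value per peak leaves its error unknown.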
